A study of Homo sapiens with 12 samples.

Results

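Kinesins are motor proteins that burn ATP to move along, or to take apart, microtubules. The genes described here are the 40 of 26475 in the deposited count table whose symbol is KIF followed by a number, with or without a letter A to C, together with CENPE, which encodes a kinesin with a centromere name. RNA came from A375 cells, an established human melanoma line that carries a BRAF mutation. The 4 groups were cells kept for 24 h in DMSO (the solvent), in 1 µM XL413, in 1 µM GSK343, or in 1 µM of each compound together (the combination). XL413 inhibits CDC7, the kinase that fires licensed replication origins, and GSK343 inhibits EZH2, the histone methyltransferase of a Polycomb complex. Each group had 3 libraries of poly-A RNA, 12 in all, which the labels call biological replicates without saying whether they were separate cultures, so the p-values measure the spread between these samples. All libraries are from 1 cell line, and no knockdown stands beside either compound.

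Mitotic kinesins build and position the spindle, carry chromosomes to its middle, and then organise the central spindle and the cut between daughter cells. Their transcripts are known to peak in G2 and mitosis of dividing cells, under promoters with cell-cycle elements. Transport kinesins carry vesicles, organelles, proteins and RNA outward along microtubules in dividing and resting cells alike, and several of them are best known from neurons. By textbook role, 14 of the 40 genes were taken as mitotic and 13 as transport kinesins, and the remaining 13 were kept apart as others because their roles are mixed, ciliary or less settled.

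A count was tested for 34 of the 40 genes, 12 mitotic, 13 transport and 9 others. Every tested kinesin had at least 13 counts in every library. The 6 genes that fell under the filter on low counts were KIF4B with 34 counts over all 12 libraries, KIF2B with 4, KIF12 with 45, KIF26A with 21, KIF25 with 7 and KIF19 with 0. A count of 0 in a library allows up to 0.0768 to 0.0951 CPM (counts per 1000000 of the effective library size), from 3 counts in the deepest and in the shallowest library. The libraries summed to between 31553205 and 39079931 expected counts. The cell identity markers SOX10 (332 CPM over the 12 libraries) and MITF (42.3 CPM) were present, while the pigment gene TYR was at 0 in every library and MLANA at 0.104 CPM. The 4 epithelial markers summed to 18.8 to 25.2 CPM, nearly all of it KRT14 (21.6 CPM; EPCAM 0.127), the 5 leukocyte markers to 5.48 to 7.78 CPM, mostly LYZ (6.25 CPM; PTPRC 0.0309), the 4 neuronal markers to 7.08 to 11.6 CPM, and the 5 fibroblast markers to 132 to 242 CPM, led by COL1A1 (88.6 CPM) and COL1A2 (81.1 CPM).

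The library GSK343+XL413 replicate 2 differed from its group. Over 10085 genes its log2 deviation from the group's other libraries had an SD of 0.245, against 0.0743 to 0.152 in the other 11. The deviation fell with transcript length (Spearman rho −0.702). Length trends were also present with single compounds. Their rho was −0.522 and 0.596 in GSK343 replicates 1 and 3, and 0.413 and −0.463 in XL413 replicates 1 and 2. The kinesins shared the deviation of combination replicate 2. Of the 34 tested kinesins, 27 were lower in that library than in both others of its group, with a median deviation of −0.26 (log2), and kinesins took 0.189% of its counts against 0.222 to 0.240% elsewhere. Because long transcripts were low in it, many of the results on the combination that follow are also given without it. An estimate given only once includes that library and may have moved without it.

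**Figure D1:**
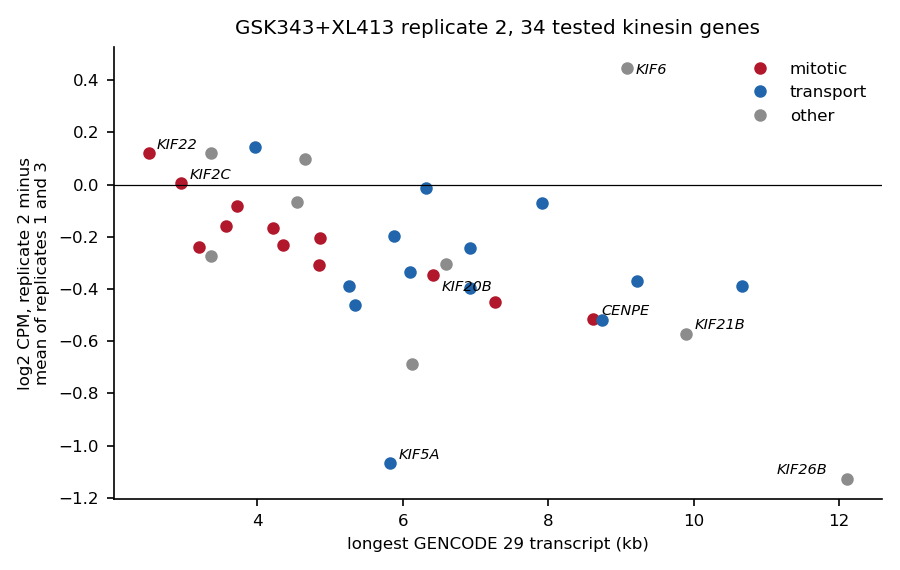
Each point is 1 of the 34 tested kinesins, with the length of its longest transcript on the x axis (kb) and, on the y axis, its log2 CPM in GSK343+XL413 replicate 2 minus the mean of replicates 1 and 3. The median is −0.26, the long transcript of CENPE lies at −0.51 and the short ones of KIF22 and KIF2C at 0.12 and 0.01.

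Per transcript length, the mitotic kinesins were the more abundant class in DMSO, with a median of 20.8 CPM per kb against 4.64 for the transport kinesins and 2.80 for the others. KIF2C, a microtubule depolymerase that corrects faulty chromosome attachments, led with 54.0 ± 0.490 CPM per kb (SD, n = 3). KIF20A, which works at the central spindle in cytokinesis, had 49.3 ± 0.502, and KIF22, a chromosome-arm motor, had 49.3 ± 0.896, so these neighbours did not differ beyond their spread. KIF23 (42.9 ± 0.699), a subunit of centralspindlin, stood next. KIF11, the motor that pushes the spindle poles apart, and KIF5B, the widespread heavy chain of conventional kinesin, were both at 41.6 CPM per kb, with SDs of 1.27 and 1.64. KIF5B was the transport kinesin of highest level and KIF1C, which moves dense vesicles, the second at 22.6 ± 0.554. CENPE, the large kinetochore motor that brings chromosomes to the metaphase plate, was at 7.44 ± 0.249 CPM per kb and the lowest of the tested mitotic kinesins, beside KIF18A, a motor that damps chromosome movements, at 7.60 ± 0.332. Among the conventional kinesins, the neuronal KIF5C and KIF5A had 1.54 ± 0.0589 and 0.395 ± 0.0432. The transport kinesins KIF3C and KIF1A had 16.2 ± 0.353 and 3.82 ± 0.195.

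**Figure D2:**
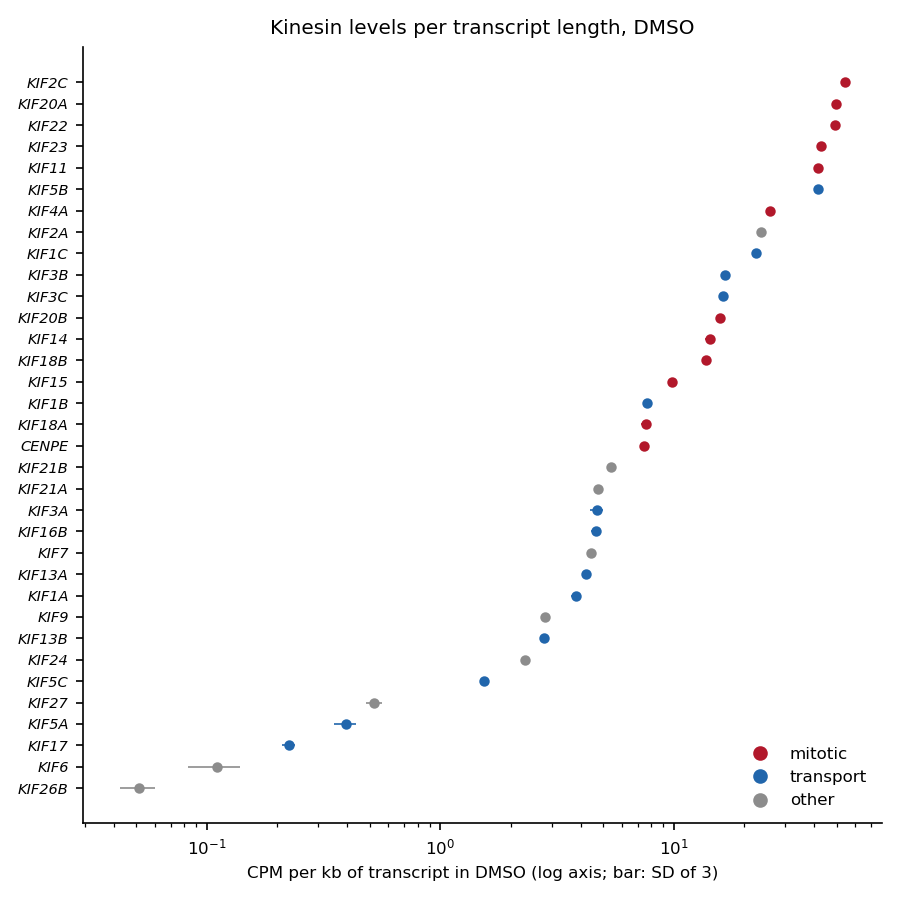
Levels of the 34 tested kinesins in DMSO, in CPM per kb of the longest transcript on a log axis, as the mean of 3 libraries with the SD as a bar. Of the first 7 genes, 6 are mitotic, and the transport kinesin among them is KIF5B at 41.6.

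Promoters are shown because many mitotic genes are known to be switched by the cell-cycle homology region (CHR), commonly spelled TTTGAA and in other promoters spelled as TTTAAA, often beside CCAAT boxes. The stretches below begin 200 bases before the RefSeq gene start (GRCh38.p14) and end at that start, or earlier where GENCODE places the start farther upstream. They read 5′ to 3′ on the gene's strand, and capitals mark a CHR spelling or CCAAT on either strand. CENPE, KIF20B and KIF18B are the kinesins with the lowest adjusted p after the combination among mitotic members, KIF4A rose with XL413, and KIF5B is the transport kinesin of highest level. They lie at chr4:103198410-103198543 (minus strand), chr10:89701390-89701589 (plus), chr17:44947774-44947973 (minus), chrX:70289904-70290089 (plus) and chr10:32056432-32056625 (minus).
CENPE: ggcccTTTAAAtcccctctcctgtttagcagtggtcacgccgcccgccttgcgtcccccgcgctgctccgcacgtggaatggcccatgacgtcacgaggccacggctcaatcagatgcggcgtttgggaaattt
KIF20B: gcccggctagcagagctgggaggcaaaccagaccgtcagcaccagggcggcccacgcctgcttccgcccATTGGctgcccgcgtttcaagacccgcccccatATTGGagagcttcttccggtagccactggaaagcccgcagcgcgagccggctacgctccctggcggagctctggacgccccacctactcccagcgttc
KIF18B: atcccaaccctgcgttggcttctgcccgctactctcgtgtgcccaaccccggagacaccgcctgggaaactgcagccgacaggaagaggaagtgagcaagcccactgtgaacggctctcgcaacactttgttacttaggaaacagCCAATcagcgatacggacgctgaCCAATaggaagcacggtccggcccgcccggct
KIF4A: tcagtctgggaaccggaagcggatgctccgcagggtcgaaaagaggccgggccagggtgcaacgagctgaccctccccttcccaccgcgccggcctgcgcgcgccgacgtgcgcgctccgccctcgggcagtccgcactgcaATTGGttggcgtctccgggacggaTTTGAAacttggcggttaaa
KIF5B: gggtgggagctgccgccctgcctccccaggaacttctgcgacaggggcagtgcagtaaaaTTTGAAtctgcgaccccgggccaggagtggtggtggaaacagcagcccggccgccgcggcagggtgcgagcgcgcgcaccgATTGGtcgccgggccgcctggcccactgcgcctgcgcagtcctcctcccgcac

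The printed CENPE stretch holds TTTAAA at position −195, and of another 2 copies the one at −68 runs past its end and the one at −62 lies after it. KIF4A had TTTGAA at −34 and a CCAAT box at −58, and KIF5B had TTTGAA at −140 and a CCAAT box at −59. KIF18B and KIF20B had 2 CCAAT boxes each in the printed stretch. Their TTTGAA copies lay after the RefSeq start, at 3 in KIF18B and at 25 and 31 in KIF20B. GENCODE places the KIF18B start farther downstream, at 44947711, so the KIF18B copy lies before that start. All 14 mitotic kinesins had a RefSeq window of 250 bases before to 50 bases after the start, and 12 held a CHR spelling, searched on both strands, where TTTAAA reads the same on each. The same held for 2 of the 11 transport kinesins with a window and 0 of 9 others, while 24.0% of all 35116 windows held either spelling. A CHR spelling together with CCAAT was in 9 mitotic, 1 transport and 0 other kinesins, against 9.27% of all windows. The letters were in 6 of the 7 mitotic kinesins that were lower with the combination and in all 5 tested ones that were not called lower. Since nearly all of them held a match, the letters could not separate them by response. These are matches of letters in a window, not measured binding.

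With the combination CENPE, KIF20B and KIF18B were among 9 kinesins lower than in DMSO, and the difference in counts between classes was not tested. Of 12 tested mitotic kinesins, 7 were lower than in DMSO and 0 higher, of 13 transport kinesins 2 were lower, and of the 9 others KIF6 was higher. Over all tested genes 13.9% were called in this comparison, 7.25% lower and 6.69% higher (edgeR quasi-likelihood test, Benjamini-Hochberg adjusted p under 0.05). With a filter of 5 CPM in 3 libraries the share called was 19.5%. Calls are harder to reach at low counts, and the classes differed in level. The tested mitotic kinesins had a median of 107 CPM and the transport kinesins 29.5 CPM. The median log2 fold change was −0.21 for the mitotic kinesins and −0.11 for the transport kinesins, against 0.01 for all tested genes. Without replicate 2 of the combination the medians were −0.16 and −0.03, with 7 mitotic kinesins lower, 1 higher, and 2 transport kinesins lower, where 8.26% of all genes were called lower and 6.72% higher. The 10 calls became 5 without DMSO replicate 2 and 6 without DMSO replicate 3, while the share of all genes called went from 13.9% to 5.44% and 6.76%. The summed level of 4 markers of undifferentiated melanoma cells was 573 to 586 CPM in DMSO and 414 to 451 CPM with the combination. Most of it was AXL, which changed by −0.48 ± 0.05 (log2, adjusted p = 0.000178). Means in the same order were 49.0 and 49.0 CPM for NGFR and 10.1 and 7.89 for SOX9. EGFR had 44.2 and 39.4 CPM, with an SD of 16.0 in the combination. The 7 melanocyte markers summed to 369 to 405 and 342 to 368 CPM. In the same order the sums were 5.48 to 6.21 and 6.82 to 7.78 CPM for leukocyte markers, 7.08 to 9.21 and 10.8 to 11.6 CPM for neuronal markers, 22.8 to 25.1 and 20.2 to 25.2 CPM for epithelial markers, and 181 to 232 and 183 to 197 CPM for fibroblast markers. Their part in the kinesin values was not tested. In bulk RNA, fewer cells in a phase of the cycle and less RNA per cell cannot be told apart.

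**Figure D3:**
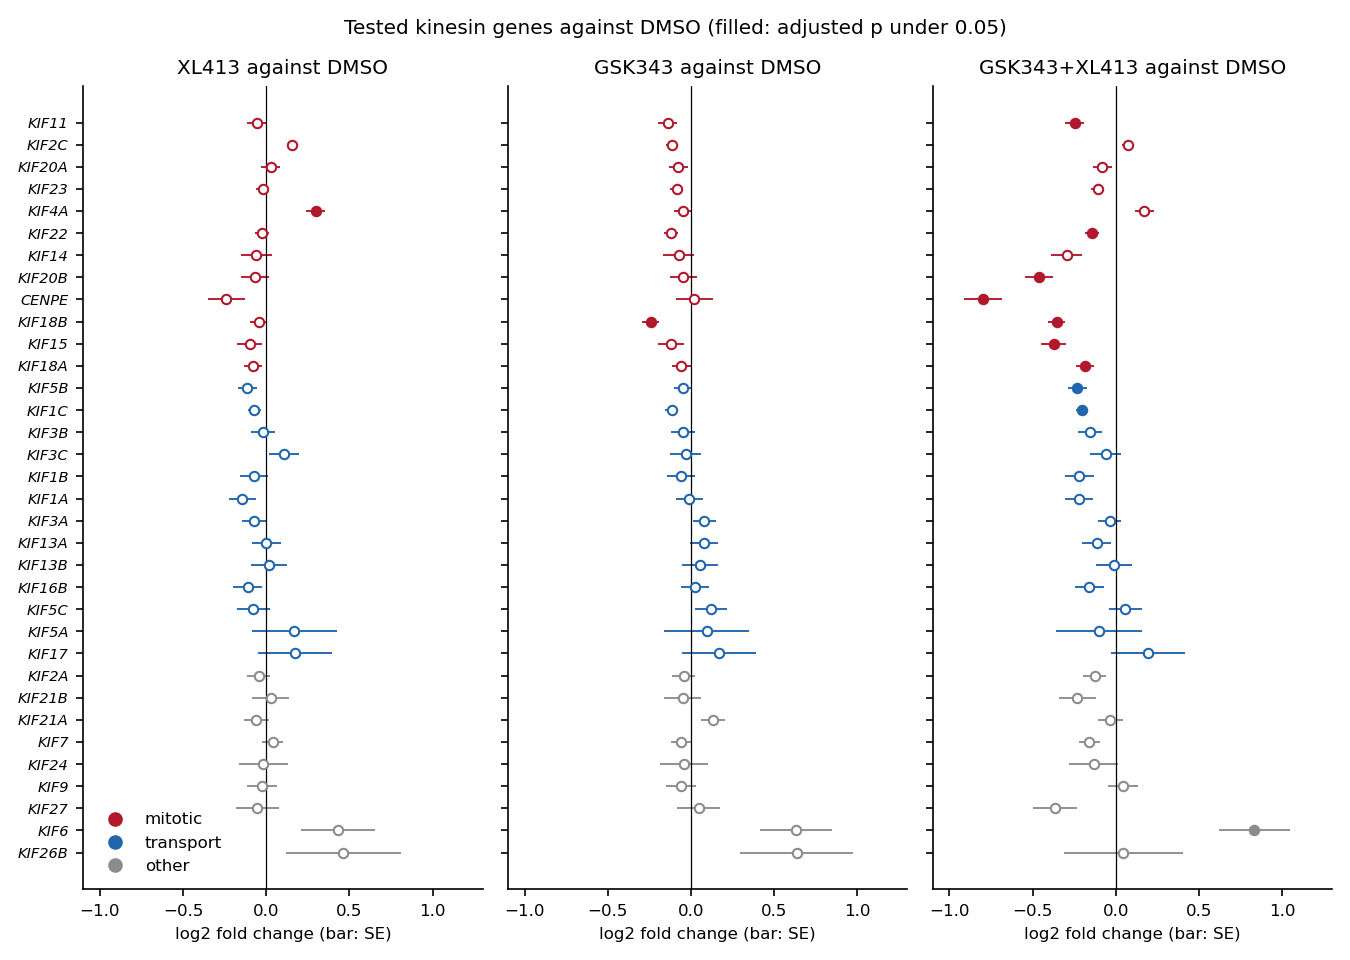
Log2 fold changes against DMSO with SE for the 34 tested kinesins, with filled points for an adjusted p under 0.05 and colours for the classes. With the combination 7 mitotic kinesins and 2 transport kinesins are filled to the left of 0, and with XL413 or GSK343 alone KIF4A and KIF18B are the filled ones.

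CENPE (chr4:103105806-103198409, minus strand, hg38) fell most among the mitotic kinesins. Its level was 61.8, 66.0 and 64.4 CPM in the DMSO libraries, 56.8, 52.4 and 53.4 with XL413, 61.7, 61.1 and 72.2 with GSK343, and 43.1, 28.7 and 39.1 with both compounds. All 3 combination libraries lay below the other 9, and the lowest was replicate 2. Against DMSO its log2 fold change was −0.80 ± 0.11 (SE, adjusted p = 0.00124), a level 0.575 times that of DMSO. Without replicate 2 it was −0.64 ± 0.07 (adjusted p = 5.08e-05).

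KIF20B (chr10:89701610-89774939, plus strand), a motor of late mitosis and cytokinesis, was also lowest with the combination. It was at 98.3, 100.6 and 103.6 CPM in DMSO, 96.9, 93.2 and 98.3 with XL413, 94.4, 91.2 and 107.2 with GSK343, and 79.1, 62.2 and 78.8 with both compounds. The combination libraries were again below all others, and GSK343 replicate 3 was the highest of the 12. Against DMSO it changed by −0.46 ± 0.08 (log2, adjusted p = 0.00446), and −0.35 ± 0.06 without replicate 2 (adjusted p = 0.00104).

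KIF18B (chr17:44924709-44947711, minus strand), which trims the plus ends of astral microtubules, was lower wherever GSK343 was present. It was at 60.0, 58.6 and 55.6 CPM in DMSO and 57.0, 56.8 and 55.0 with XL413, against 49.0, 48.9 and 49.2 with GSK343 and 46.9, 42.0 and 47.3 with both compounds. The 6 libraries with GSK343 and the 6 without it did not overlap. The fall with the combination was −0.35 ± 0.05 on the log2 scale (adjusted p = 0.00125), and −0.30 ± 0.04 without replicate 2 (adjusted p = 0.000329).

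KIF15 (chr3:44761717-44873376, plus strand), which backs up KIF11 in keeping the spindle bipolar, was at 47.8, 47.7 and 47.1 CPM in DMSO, 43.6, 44.4 and 45.1 with XL413, 40.8, 44.6 and 45.8 with GSK343, and 37.3, 31.6 and 41.3 with both compounds. Each treated group lay below DMSO, with the combination lowest except that its replicate 3 exceeded GSK343 replicate 1. Its log2 fold change with the combination was −0.37 ± 0.08 (adjusted p = 0.00817), and −0.27 ± 0.05 without replicate 2 (adjusted p = 0.00399).

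KIF11 (chr10:92593286-92655395, plus strand) was at 195.6, 207.7 and 203.6 CPM in DMSO, 201.9, 188.2 and 193.6 with XL413, 180.9, 175.9 and 193.5 with GSK343, and 177.7, 155.1 and 179.5 with both compounds. GSK343 and the combination lay below every DMSO library, and XL413 overlapped DMSO. With the combination its log2 fold change was −0.24 ± 0.06 (adjusted p = 0.015), and −0.18 ± 0.04 without its replicate 2. Leaving out DMSO replicate 2 or replicate 3 moved the adjusted p to 0.0636 or 0.0502.

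KIF22 (chr16:29790719-29805385, plus strand), whose transcript is the shortest of the tested mitotic kinesins, was at 125.6, 123.5 and 121.1 CPM in DMSO, 119.9, 122.9 and 120.6 with XL413, 116.4, 112.9 and 111.4 with GSK343, and 110.0, 117.9 and 107.1 with both compounds. The 6 libraries with GSK343 lay below the 6 without it. Its fall with the combination was −0.14 ± 0.04 (log2, adjusted p = 0.0385) and, unlike that of the long transcripts, was greater without replicate 2 (−0.18 ± 0.03, adjusted p = 0.00296). Leaving out any DMSO library, XL413 replicate 3, or combination replicate 1 or 3 ended the call (adjusted p 0.0563 to 0.118).

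KIF18A, chosen for its values after the 10 smallest adjusted p had been named, was lower with the combination at 24.3, 22.2 and 25.1 CPM against 25.9, 27.3 and 28.2 in DMSO, with 25.3, 25.8 and 25.9 for XL413 and 26.2, 25.6 and 26.5 for GSK343. The combination lay below all other libraries by small margins. Its log2 fold change was −0.19 ± 0.05 (adjusted p = 0.0399). The call held without DMSO replicate 1, GSK343 replicate 3 or combination replicate 3 and was lost without any 1 of the other 9 libraries (adjusted p 0.051 to 0.135). Without combination replicate 2 the log2 fold change was −0.13.

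A smaller set of mitotic kinesins did not fall with the combination. KIF2C (chr1:44739818-44767767, plus strand) was at 161.2, 159.1 and 158.4 CPM in DMSO, 176.6, 181.4 and 175.5 with XL413, 147.6, 147.6 and 147.1 with GSK343, and 162.8, 168.1 and 172.0 with both compounds. XL413 lay highest, GSK343 lowest and the combination between XL413 and DMSO, with no overlap among the 4 groups. Against DMSO the combination gave 0.07 ± 0.03 (log2, adjusted p = 0.181), and 0.07 without its replicate 2 (adjusted p = 0.143).

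KIF4A (chrX:70290090-70420832, plus strand), a chromosome-bound and central-spindle motor, was at 116.3, 109.4 and 112.2 CPM in DMSO, 140.8, 135.8 and 138.5 with XL413, 108.8, 107.6 and 110.2 with GSK343, and 133.6, 113.6 and 133.4 with both compounds. Combination replicates 1 and 3 lay near XL413, and replicate 2 near DMSO. Against DMSO the combination gave 0.17 ± 0.06 (log2, adjusted p = 0.058), and without replicate 2 it was higher by 0.25 ± 0.03 (adjusted p = 0.000329). KIF4A is given in full although it stood outside the first 10 by adjusted p. KIF4B, its near-copy, shared 13.4% of the 50-base windows of the KIF4A transcripts, so that reads in them could have gone to either gene, but KIF4B received at most 6 counts in a library.

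The remaining mitotic kinesins had log2 fold changes below 0 that did not pass. KIF20A was at 159.8, 156.8 and 157.3 CPM in DMSO and 154.8, 133.5 and 160.1 with both compounds, and the groups overlapped (−0.08 ± 0.06, adjusted p = 0.362). KIF23 gave −0.11 ± 0.04 (adjusted p = 0.0771). KIF14, a partner of citron kinase at the midbody, gave −0.29 ± 0.09 (adjusted p = 0.0514). For KIF14 replicate 2 carried much of the difference, since the combination libraries stood at 92.4, 68.0 and 93.4 CPM against 99.1, 104.1 and 107.7 in DMSO. Without that library the log2 fold change of KIF14 was −0.15 ± 0.04, which passed (adjusted p = 0.0324).

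**Figure D4:**
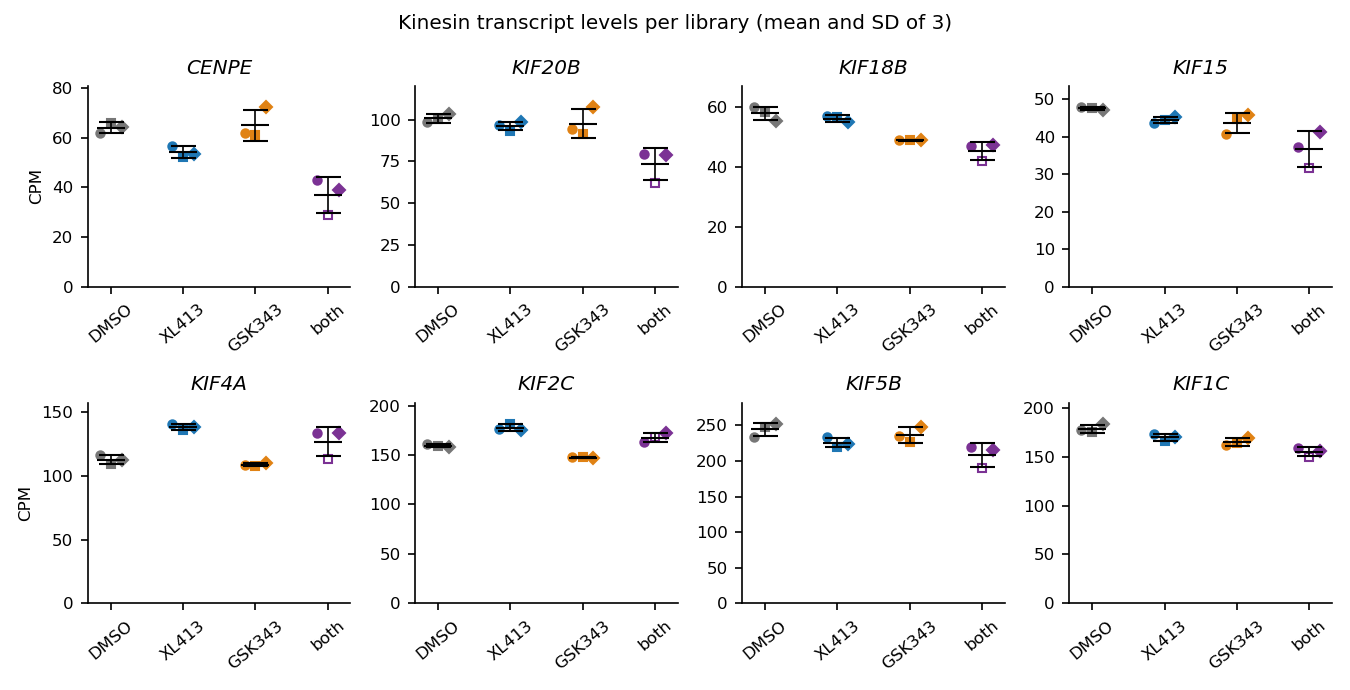
CPM of 8 kinesins in each library, by group, with circles, squares and diamonds for replicates 1, 2 and 3, an open square for GSK343+XL413 replicate 2, and bars for the mean and SD of 3. CENPE and KIF20B are lowest with both compounds, KIF18B is lower in the 6 libraries with GSK343, and KIF4A is high with XL413.

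Among transport kinesins the combination lowered KIF5B and KIF1C. KIF5B (chr10:32009010-32056431, minus strand) was at 233.7, 247.6 and 252.1 CPM in DMSO, 233.5, 220.3 and 224.3 with XL413, 235.4, 226.6 and 247.8 with GSK343, and 220.1, 189.7 and 215.5 with both compounds. The combination lay below all other libraries, although its replicate 1 came within 1 CPM of XL413 replicate 2. Its log2 fold change was −0.23 ± 0.06 (adjusted p = 0.0181), and −0.16 ± 0.04 without replicate 2 (adjusted p = 0.0193). Without DMSO replicate 2 or 3 the adjusted p was 0.0674 or 0.0713.

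KIF1C (chr17:4997948-5028401, plus strand) was at 177.5, 175.4 and 183.8 CPM in DMSO, 173.5, 166.7 and 170.9 with XL413, 161.8, 164.5 and 169.3 with GSK343, and 159.5, 150.4 and 156.6 with both compounds. The combination lay below all other libraries. The log2 fold change was −0.20 ± 0.04 (adjusted p = 0.00555) and −0.17 ± 0.03 without replicate 2 (adjusted p = 0.00369). A correction of each library for its trend with transcript length took KIF1C to −0.08, which was not called.

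KIF3B, a motor subunit of heterotrimeric kinesin-2 and the third transport kinesin by level, was at 100.3, 100.7 and 102.3 CPM in DMSO, 102.1, 97.1 and 99.96 with XL413, 99.6, 94.2 and 99.2 with GSK343, and 98.1, 77.3 and 97.0 with both compounds. Replicate 2 lay apart from the other 11 values, and the log2 fold change of −0.16 ± 0.07 was not called (adjusted p = 0.161). The other transport kinesins ranged from −0.22 in KIF1A and KIF1B to 0.20 in KIF17, and none was called. In combination replicate 2, KIF1A and KIF1B deviated from the group's other libraries by −0.371 and −0.388 (log2). KIF3A, the partner of KIF3B, gave −0.04, and the vesicle motors KIF13A, KIF13B and KIF16B gave −0.11, −0.01 and −0.16. The neuronal conventional kinesins KIF5A and KIF5C gave −0.10 and 0.06. The summed level of 4 neuron markers was 7.08 to 9.21 CPM in DMSO and 10.8 to 11.6 with the combination. SNAP25 was higher by 0.69 ± 0.16 (log2, adjusted p = 0.0124). Means in DMSO and with the combination were 5.73 and 7.13 CPM for SYT1 and 0.180 and 0.336 for STMN2. RBFOX3 went the other way, at 0.270 and 0.151 CPM. The part of these markers in the kinesin values was not tested.

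Among the 9 other tested kinesins KIF6, a little-expressed kinesin, was the 1 called. It was at 0.727, 1.097 and 1.204 CPM in DMSO, 1.31, 1.28 and 1.49 with XL413, 1.54, 1.67 and 1.48 with GSK343, and 1.36, 2.18 and 1.83 with both compounds. All treated libraries exceeded the DMSO libraries, on 24 to 84 counts per library. The log2 fold change with the combination was 0.83 ± 0.21 (adjusted p = 0.0224), and leaving out DMSO replicate 1 or 2 or combination replicate 2 ended the call (0.65 to 0.89, adjusted p 0.0601 to 0.0834). KIF2A, a depolymerase at spindle poles and in interphase, gave −0.13, KIF7, a regulator of Hedgehog signalling at the cilium tip, −0.16, KIF21B −0.23 and KIF27 −0.36, none of them called. KIF9 overlaps an antisense gene, and the strand setting of the counting is not given in the sources used here, so its level of 9.33 CPM may include reads of that gene.

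XL413 alone raised KIF4A and changed no other kinesin past the test, 1 of 34 against 0.427% of all tested genes called in either direction and 0.278% higher. The rise was 0.30 ± 0.06 on the log2 scale, 1.23 times DMSO (adjusted p = 0.0386), with all 3 XL413 libraries above all 3 of DMSO. The call was lost when any 1 of the DMSO, XL413 or GSK343 libraries was left out (0.28 to 0.32, adjusted p 0.0504 to 0.195) and held without any 1 of the combination libraries. Without combination replicate 2, which enters this comparison through the shared spread, the scaling and the filter, KIF4A was at 0.31 ± 0.03 (adjusted p = 8.23e-05), KIF2C was higher by 0.16 ± 0.03 (adjusted p = 0.00588) and CENPE lower by 0.23 (log2 fold change −0.23 ± 0.06, adjusted p = 0.0382). In that fit 4.85% of all genes were called, 2.27% higher and 2.59% lower. With all 12 libraries KIF2C gave 0.16 ± 0.03 (adjusted p = 0.0718) and CENPE −0.24 ± 0.11 (adjusted p = 0.359).

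The class medians with XL413 were −0.05 for the mitotic and −0.07 for the transport kinesins, against −0.01 for all genes. Of the mitotic kinesins 2 were above DMSO in every library (KIF4A and KIF2C) and 2 below (CENPE and KIF15), where 11.9% and 16.2% of all genes were so. Of the transport kinesins 1 was above and 5 below.

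GSK343 alone lowered KIF18B, 1 of 34 kinesins against 1.17% of all genes called in either direction and 0.44% lower. The log2 fold change was −0.24 ± 0.05 (adjusted p = 0.0334). The call held without combination replicate 2 or 3 and was lost without any 1 of the other 10 libraries (−0.27 to −0.22, adjusted p 0.0506 to 0.167). Estimates were below 0 for 11 of 12 mitotic kinesins, with a median of −0.08, against 49.6% of all genes, and for 6 of 13 transport kinesins, with a median of 0.03. All 3 GSK343 libraries lay below all 3 of DMSO for 7 mitotic and 2 transport kinesins, against 14.0% of all genes. Without combination replicate 2, KIF18B (adjusted p = 0.00141), KIF2C (0.0383), KIF22 (0.0366), KIF11 (0.0472) and KIF1C (0.0443) were called lower, where 3.59% of all genes were.

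Against XL413 alone, the combination was lower for CENPE, KIF18B and KIF20B, 3 of 34 kinesins against 0.784% of all genes called in either direction and 0.227% lower. The log2 fold changes were −0.56 ± 0.11 for CENPE (adjusted p = 0.0404), −0.31 ± 0.05 for KIF18B (adjusted p = 0.0104) and −0.39 ± 0.08 for KIF20B (adjusted p = 0.0498). All 12 mitotic kinesins had estimates below 0, with or without combination replicate 2, against 47.9% of all genes with all libraries. Among transport kinesins 10 of 13 estimates were below 0, and 6 of 13 without that library. For 11 mitotic kinesins all combination libraries were below all of XL413, against 9.84% of all genes. Of the transport kinesins 2 of 13 were below in every library. The CENPE call held without GSK343 replicate 3 or combination replicate 1 or 2, and was lost without any 1 of the other 9 libraries (−0.61 to −0.53, adjusted p 0.0592 to 0.176). The KIF20B call held without GSK343 replicate 3 or any 1 combination library and was lost without any 1 of the other 8 (−0.43 to −0.38, adjusted p 0.0603 to 0.176). Leaving out XL413 replicate 1 or 2 ended the KIF18B call (adjusted p 0.0638 and 0.0536). Without combination replicate 2 all 3 were called, with CENPE at −0.41 (adjusted p = 0.00743), and KIF22 joined them, where 0.789% of all genes were called lower.

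Against GSK343 alone, the combination was lower for CENPE and KIF20B and higher for KIF2C, where 0.984% of all genes were called, 0.337% lower and 0.648% higher. CENPE gave −0.82 ± 0.11 (adjusted p = 0.00465), and this call held without each of the 12 libraries in turn. KIF20B gave −0.41 ± 0.08 (adjusted p = 0.0378) and held only without 1 of the combination libraries, being lost without any 1 of the other 9 (−0.47 to −0.35, adjusted p 0.0583 to 0.172). KIF2C gave 0.19 ± 0.03 (adjusted p = 0.0291) and held without combination replicate 2 alone (0.18, adjusted p = 0.00935), being lost without any 1 of the other 11 (0.16 to 0.19, adjusted p 0.0507 to 0.138). KIF4A gave 0.22 ± 0.06 (adjusted p = 0.074), and without combination replicate 2 it was higher by 0.29 ± 0.03 (adjusted p = 0.000346), in a fit where 0.898% of all genes were called higher. The comparisons of the combination share its libraries, and those against DMSO share the DMSO libraries, so they are not independent of each other.

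Whether the compounds together did other than the sum of each alone was tested by the interaction, the GSK343 effect with XL413 minus that without it. By edgeR 0 of 34 kinesins and 0.0% of all genes were called, with 3 kinesins and 413 genes at an unadjusted p under 0.05, and DESeq2 and limma-voom also called 0 kinesins. CENPE had an interaction of −0.58 ± 0.16 (log2, adjusted p = 0.989) and KIF20B −0.34 ± 0.12 (adjusted p = 0.989). Without combination replicate 2 these were −0.43 ± 0.09 (adjusted p = 0.841) and −0.25 ± 0.07 (adjusted p = 1.0). The stronger fall of CENPE with both compounds was therefore not shown to differ from additive effects on the log scale.

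The level of mitotic relative to transport kinesins was taken per library as the mean log2 CPM of the 12 minus that of the 13. It was 1.72, 1.66 and 1.68 in DMSO and 1.69, 1.67 and 1.71 with XL413, and it was 1.60, 1.56 and 1.56 with GSK343 and 1.53, 1.64 and 1.51 with both compounds. The 6 libraries with GSK343 lay below the 6 without it. The differences from DMSO were 0.004 for XL413, −0.11 for GSK343 alone and −0.13 for cells given both, with SDs over libraries of 0.028 in DMSO, 0.024, 0.025 and 0.068. The difference of the combination was −0.17 without its replicate 2 and −0.18 after the length correction, which brought that library from 1.64 to 1.52, beside 1.53 and 1.52 in the other combination libraries. These values describe the classes and carry no p, since the genes were chosen with results known.

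**Figure D5:**
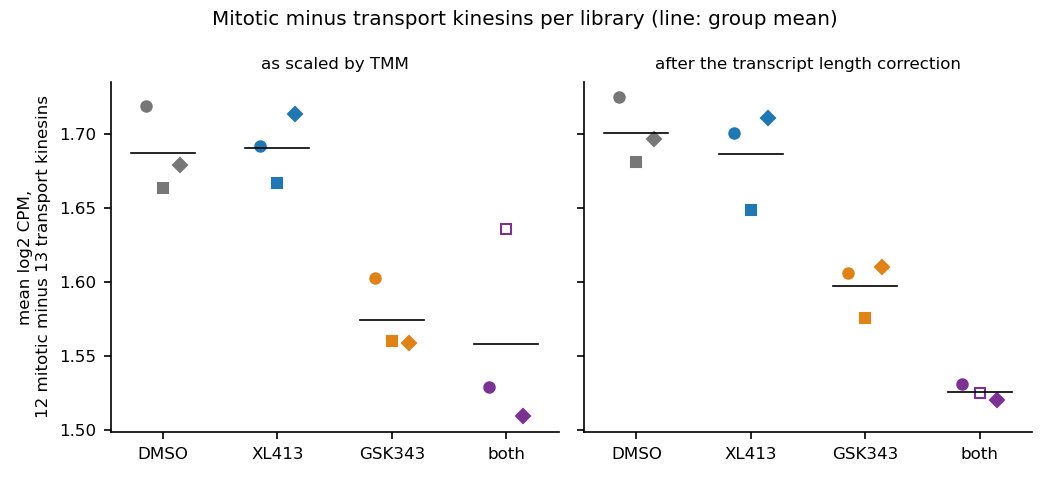
Mean log2 CPM of 12 mitotic minus that of 13 transport kinesins in each library, with lines for group means, circles, squares and diamonds for replicates 1 to 3 and an open square for GSK343+XL413 replicate 2; the y axis does not start at 0. The left panel shows TMM-scaled values and the right panel values after the length correction, where that library moves from 1.64 to 1.52.

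Genes that work with kinesins were read from 2 partner lists. Of 15 tested mitotic partners, PRC1, which bundles the central spindle and recruits KIF4A, was higher with XL413 by 0.20 ± 0.04 (log2, adjusted p = 0.042). DESeq2 called 3 with XL413, with BIRC5 and NUF2 beside PRC1, against 1.61% of all genes. With GSK343 0 of the 15 were called by edgeR, although all 15 estimates were below 0, against 49.6% of all genes. In that comparison 4 of the 15 had an unadjusted p under 0.05, against 2201 of all 15443 genes. DESeq2 called 1 with GSK343, TPX2, against 2.21% of all genes, and limma-voom called 0. With the combination 5 of 15 passed against DMSO, with 2 higher, where 6.69% of all genes were, and 3 lower, where 7.25% were. NUF2, a subunit of the kinetochore complex NDC80, rose by 0.21 ± 0.05 (adjusted p = 0.0143), and BIRC5, of the chromosomal passenger complex, by 0.18 ± 0.05 (adjusted p = 0.0295). INCENP, the scaffold of that same complex, fell by 0.33 ± 0.07 on the log2 scale (adjusted p = 0.0126), NUMA1, a spindle-pole organiser, by 0.35 ± 0.10 (adjusted p = 0.0424), and KIFC1, a minus-end kinesin whose symbol is outside the rule, by 0.18 ± 0.04 (adjusted p = 0.0213). The median of the 15 was −0.05. NUMA1 was at −0.18 and INCENP at −0.21 without combination replicate 2, where 8 of 15 passed, 4 higher and 4 lower, against 6.72% and 8.26% of all genes. In that fit 6 of 15 passed with XL413, 5 of them higher, against 4.85% of all genes called and 2.27% higher, and 4, all lower, with GSK343, against 3.59% lower.

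Of 19 tested transport partners, 2 were called lower with the combination, near the 7.25% of all genes called lower. KLC2, a light chain of conventional kinesin, fell by 0.21 ± 0.04 on the log2 scale (adjusted p = 0.0104), and the adaptor MAPK8IP3 fell by 0.28 ± 0.06 (adjusted p = 0.00898). The median of the 19 was −0.03, and none of them was called with XL413 or GSK343 alone by edgeR. In these fits 3 and 5 of the 19 had an unadjusted p under 0.05, against 2114 and 2201 of all 15443 genes. DESeq2 called 0 and 1 (KIFC2), against 1.61% and 2.21% of all genes, and limma-voom 0 and 0. The counts called lower became 3 with the combination and 2 with GSK343 without combination replicate 2, where 8.26% and 3.59% of all genes were called lower.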

How the data were processed

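Poly-A RNA of 12 libraries was counted per gene. The deposited values are RSEM expected counts, estimated read counts that need not be whole, made by the authors. The submitters' processing notes name Bowtie2 2.1.0, RSEM 1.2.15 and the build hg38. Annotation, strand setting and read filters were not given in the sources used here. Expected counts were rounded and analysed with edgeR 4.0.16 in R 4.3.3. The filter filterByExpr (minimum count 10, minimum total 15) left 15443 genes. After TMM scaling, a quasi-likelihood fit with 4 group coefficients and 8 residual degrees of freedom gave 6 two-sided contrasts. P-values were adjusted by Benjamini-Hochberg over all tested genes, with calls under 0.05. Each SE is the absolute log2 fold change over the square root of F. The fit was also run on simulated counts with no length trend and no deviating library. That run therefore says nothing about combination replicate 2. CPM are counts scaled to the effective library size. Lengths are those of the longest GENCODE 29 transcript.

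The members, classes and partner lists were chosen with earlier results of these data known. Values in all libraries are given for members called in any contrast (the 10 of smallest adjusted p) and for the 3 mitotic and 3 transport members of highest level. Partners are named where called. Alternatives were RLE and upper quartile scaling, no filter, a filter of 5 CPM in 3 libraries, DESeq2 1.42.0, limma-voom (limma 3.58.1), only the groups compared, the replicate number as a block, a lowess correction for transcript length (span 0.3), other class borders, and each library left out. Counting error is small at 31553205 to 39079931 counts per library for the mitotic kinesins, and limits KIF6, KIF17, KIF26B, KIF27 and KIF5A. The results for 1 gene of the transport partner list and 1 leukocyte marker are not reported here.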

Additional observations from a re-analysis of the deposited data

How the results depend on the processing

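Of 84 pairs of a named kinesin and a comparison, 18 were called, and 3 calls were kept under every alternative, those of CENPE, KIF18B and KIF20B for the combination against DMSO. The other 15 were lost under at least 1, and 13 of 66 pairs not called were called under at least 1; no pair was reversed with a call. The cause was not tested, except that leaving out libraries or fitting only the groups compared leaves fewer samples.

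Kinesins called with XL413 against DMSO numbered 1 in the fit reported (0.427% of all genes called), 2 with the stricter filter (0.739%), with DESeq2 (1.61%) and with the length correction (2.93%), and 3 of 34 with only the groups compared (9.3%, about the kinesins' own share). With GSK343 they numbered 1 (1.17%), and 0 with no filter (0.665%). With the combination against DMSO they numbered 10 (13.9%), and 4 with only the groups compared (4.37%). Against XL413 the combination gave 3 (0.784%), with 5 by DESeq2 (1.89%), 0 with only the groups compared (0.119%) and 6 with the length correction (2.66%), and against GSK343 it gave 3 (0.984%), with 5 by DESeq2 (3.74%) and 0 with only the groups compared (0.0%). Leaving out 1 library in turn gave 0 to 3 for XL413 (0.102 to 4.85% of all genes called) and 0 to 5 for GSK343 (0.237 to 6.15%). For the combination it gave 5 to 11 against DMSO (5.44 to 16.7%), 0 to 4 against XL413 (0.256 to 1.62%) and 1 to 4 against GSK343 (0.224 to 2.23%). The interaction stayed at 0 (0.0%). Without GSK343+XL413 replicate 2 and with the length correction, a setting added after the data were seen, the counts were 4 for XL413, 6 for GSK343, 6 for the combination against XL413 and 5 against GSK343, with 8.14%, 9.53%, 3.22% and 3.39% of all genes called. Mitotic minus transport kinesins with no filter, which adds genes near 0, was −0.059 with XL413 (reversed from 0.004), −0.15 with GSK343 and −0.20 with the combination, and with the stricter filter it was 0.035 with XL413. Leaving out 1 library in turn gave −0.008 to 0.019, −0.13 to −0.10 and −0.17 to −0.10.

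Whether the replicate numbers pair the libraries was not tested. Deviations of same-numbered libraries correlated at −0.295 to 0.477 (median −0.0131, 18 pairs) and those of different numbers at −0.443 to 0.399. With the replicate block 0 kinesins were called with GSK343 in place of 1, while the share of all genes called went from 1.17% to 0.699%. With the block and the length correction 2 kinesins were called with XL413 in place of 1, while that share went from 0.427% to 1.72%.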
